A study of Homo sapiens with 6 samples.

Results

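The nuclear-encoded subunits of the mitochondrial respiratory chain were followed in a human thyroid cancer cell line after knockdown of GDF15, a secreted cytokine of the TGF-β family. Members were taken by name: a row had to be annotated as protein coding and to carry a symbol of the NDUFA, NDUFB, NDUFC, NDUFS or NDUFV series (complex I), SDHA to SDHD (complex II), UQCR (complex III), COX4 to COX8 followed by a letter A, B or C (complex IV), or ATP5F1, ATP5M, ATP5P or ATP5I (complex V). This gave 82 of the 34738 rows, and 79 of the 11867 genes that passed the filter on low values, a mean of at least 1 FPKM (fragments per kilobase of transcript, scaled to sequencing depth) over the 6 libraries. COX6B2, COX7B2 and UQCRHL fell below that filter and were not tested. A further 64 rows carried a matching symbol without the protein-coding annotation and were left out. The name rule misses COX4I1 and CYC1, given below, and NDUFAB1, the mitochondrial acyl carrier protein found in complex I, which had 26.7 ± 2.44 FPKM in NC and 23.96 ± 0.344 in siGDF15 and was not called (adjusted p = 0.581).

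The study sequenced poly(A) RNA from cells labelled KHM-5M, with 3 control libraries (NC) and 3 libraries transfected with siRNA against GDF15 (siGDF15), to learn what GDF15 silencing does to the transcriptome. No genotype, other agent or time point is labelled, and both groups carry the same cell line label. The NC group is labelled only as control: the design text calls it blank, whereas the sequencing methods speak of negative control cells and the study lists a negative control siRNA beside the one against GDF15, without saying that the sequenced NC cells received it. A legend of the study names TPC-1, another thyroid cancer line, for the sequencing result, whereas the labels give KHM-5M and the sequencing methods name no line. If the NC cells were not transfected, transfection and loss of GDF15 cannot be told apart in this comparison. A single cell line and a single means of knockdown limit what the groups can stand for as a model.

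The respiratory chain moves electrons from NADH (complex I) and succinate (complex II) through ubiquinone to complex III, cytochrome c and complex IV, which reduces oxygen. Complexes I, III and IV pump protons across the inner membrane, and complex V, the ATP synthase, uses the gradient to make ATP. Complex II is encoded wholly in the nucleus, whereas the other complexes join nuclear subunits to core subunits made from mitochondrial DNA, so their assembly draws on both genomes.

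Totals of the deposited expected counts ran from 51738814 (siGDF15 replicate 2) to 68025163 (NC replicate 2), and 1 read pair amounted to 4 counts. GDF15 was measured at 22.4, 19.3 and 23.1 FPKM in NC and at 10.8, 10.5 and 10.7 FPKM in siGDF15, so the groups did not overlap (log2 fold change -0.92 ± 0.08, standard error; exact two-sided permutation test, p = 0.1, the smallest that 3 against 3 libraries allow). Mitochondrially encoded genes took 6.39 to 6.78% of counts in NC and 8.53 to 9.17% in siGDF15. With these genes left out of the scaling, 43 members were higher and 7 lower, the same counts as given below with them. Of the thyroid markers, PAX8 was high (59.1 ± 5.33 FPKM in NC and 79.5 ± 1.70 in siGDF15, SD, n = 3), FOXE1 was near 2.76 FPKM in NC, and TG, NKX2-1 and SLC5A5 were at or near 0. Immune (PTPRC, CD3E), endothelial (PECAM1, VWF, CDH5) and muscle markers (MYH7, ACTA1, CKM) were at most 0.161 FPKM in every library, while CD68 stood at 18.3 ± 0.974 and the fibroblast genes COL1A1, COL1A2 and LUM at 5.65 to 6.32 FPKM in NC, with no call for any of these 4 genes. Another fibroblast gene, DCN, had 0.536 FPKM in NC and was below the filter. Epithelial KRT18, KRT8, KRT19, EPCAM and CDH1 had 92.55, 15.85, 13.18, 1.86 and 0.897 FPKM in NC. Mesenchymal VIM, FN1 and CDH2 had 399.8, 367.4 and 4.19 FPKM. Of these epithelial and mesenchymal genes, CDH1 and FN1 were called higher in siGDF15 and the others were not called.

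Subunit mRNAs were mostly higher after GDF15 knockdown, by modest amounts. In the siGDF15 libraries 43 of 79 tested members rose, 7 fell and 29 did not pass the test (edgeR quasi-likelihood test, Benjamini-Hochberg adjusted p under 0.05 over all tested genes). Across all tested genes 61.4% were called, 30.0% higher and 31.4% lower, so the members were called about as often as any gene (63.3%), with 54.4% higher and 8.86% lower. Their median log2 fold change was 0.20, beside 0.00 for all tested genes, and the values ran from -0.58 (NDUFA5) to 0.70 (ATP5MG). None of the members reached a log2 fold change of 1, a size reached with an adjusted p under 0.05 by 7.81% of tested genes. These are bulk libraries, in which a change in the share of cells that express a gene and a change in RNA per cell cannot be told apart. The plot of log2 fold changes by complex shows how the members spread.

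**Figure D1:**
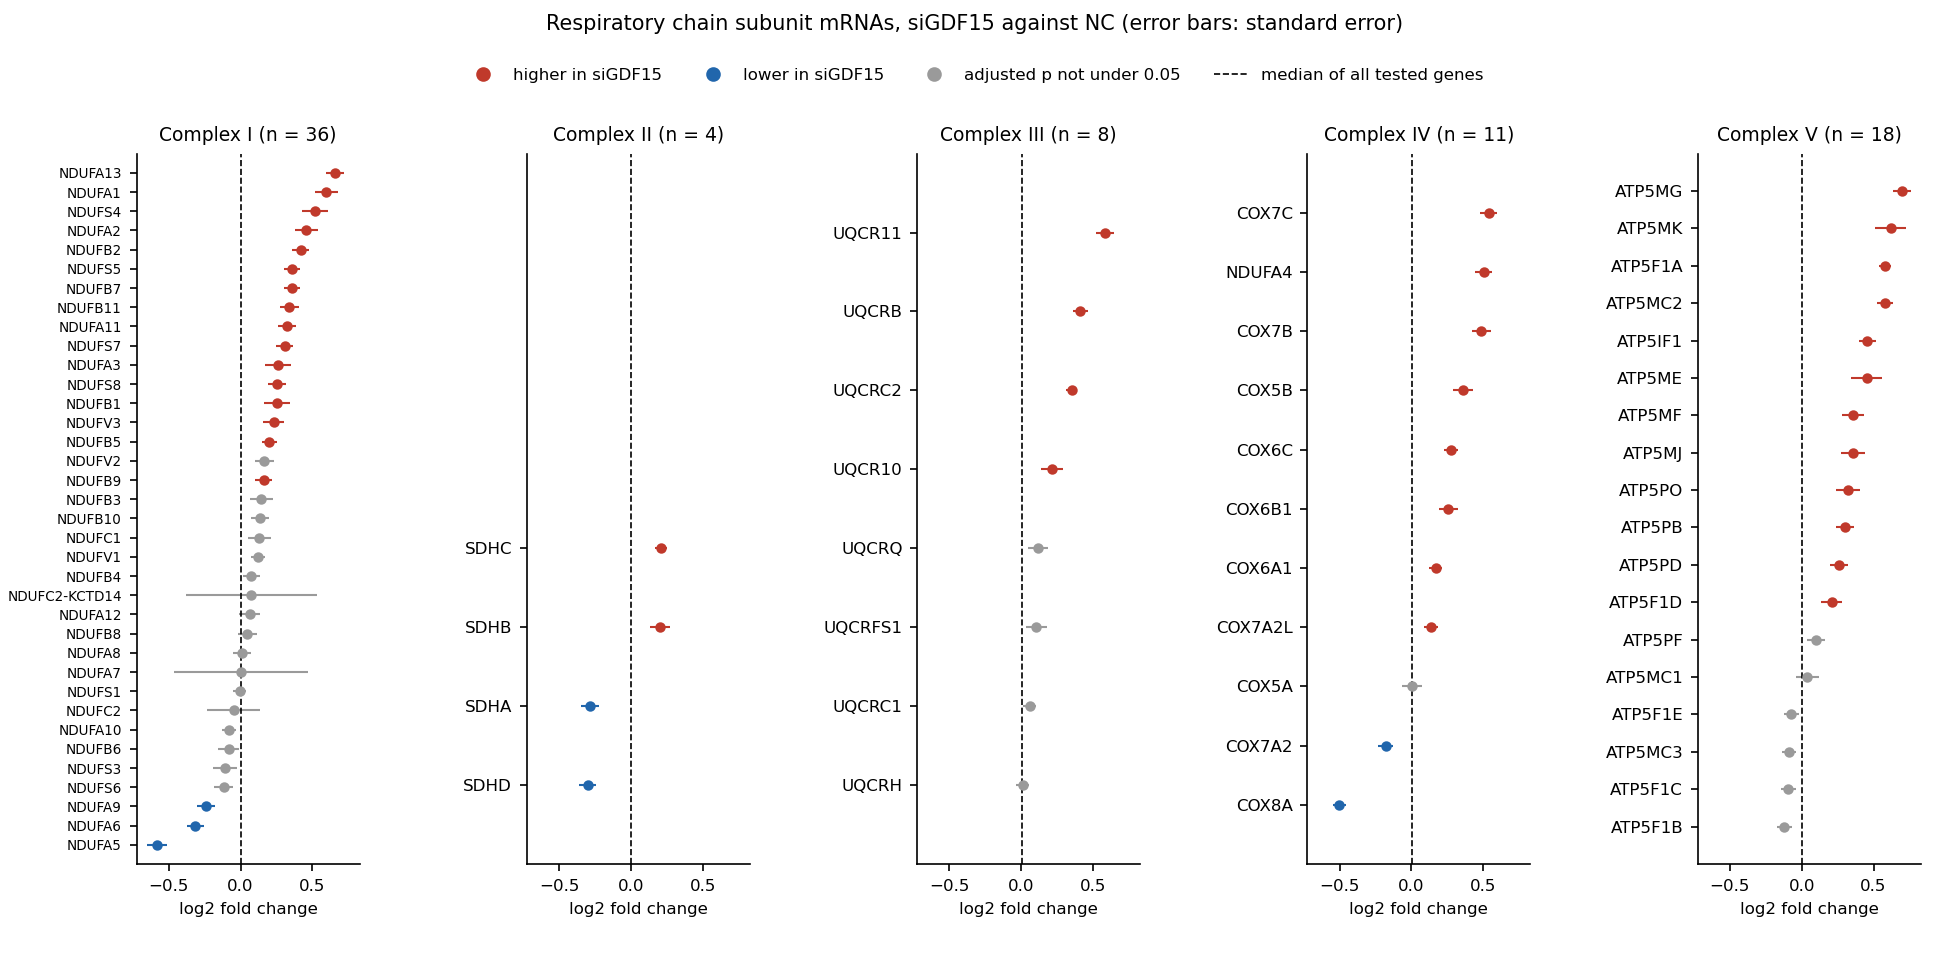
Log2 fold change of tested subunits, siGDF15 against NC, by complex (36 of the 37 in complex I are drawn, and the paralog NDUFA4L2 is not drawn). Points are edgeR estimates, bars their standard errors, and colour gives the call. Most points lie to the right of the dashed median of all tested genes, complex II has 2 on either side, and NDUFA7 and NDUFC2-KCTD14 have by far the widest bars in complex I.

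The direction depends in part on how the libraries are scaled. The fold changes here use TMM factors, which were 1.03 to 1.04 in NC and 0.958 to 0.972 in siGDF15. FPKM values are scaled by each library's total, and their ratios lie lower than the fold changes, by a median of 0.105 on the log2 scale over 11865 genes. Scaled by total count without TMM, the median of all tested genes moved to -0.10, 29 members were higher and 14 lower, and 22.8% and 39.5% of all tested genes were higher and lower. Members that were called with TMM but not with total counts were NDUFA3, NDUFB1, NDUFB5, NDUFB9, NDUFS8, NDUFV3, SDHB, SDHC, UQCR10, COX6A1, COX6B1, COX7A2L, ATP5F1D and ATP5PD, all among the higher. The median of the members lay above that of all tested genes by 0.196 with TMM. It did so by the same 0.196 with total counts, DESeq2, equal-median scaling and mitochondrial genes left out of the scaling. The difference was 0.144 with quantile normalization, 0.162 with limma on log2(FPKM + 1), 0.156 with the filter at 0.1 FPKM and 0.0726 with no filter. In FPKM, 36 members had all siGDF15 libraries above all NC libraries, 16 had them below, and 27 overlapped. Of those below, 9 were not called with TMM: NDUFA10, NDUFS1, NDUFS3, NDUFS6, UQCRH, ATP5F1B, ATP5F1C, ATP5F1E and ATP5MC3. Groups that did not overlap thus made up 65.8% of members and 68.4% of all tested genes.

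Promoter sequence was available for 65 of the 79 tested members from RefSeq (GRCh38.p14), and the 250 bases before the first listed start were searched on both strands for the core motifs of 3 factors long tied to respiratory genes: NRF1 (GCGCANGCG), the ETS family to which GABP belongs (CCGGAAG) and YY1 (AAGATGGCG). The NRF1 motif was found in 29.2% of members, 14.3% of 8820 promoters of tested genes and 7.02% of 27305 promoters in all. The ETS motif was found in 26.2%, 17.2% and 8.82%, and the YY1 motif in 1.54%, 1.1% and 0.641%. Any of the motifs stood in 17 of 33 promoters of members that rose, in 4 of 7 of those that fell and in 11 of 25 of those not called, so promoters of both directions carried them. The first listed start need not belong to the locus as counted. For NDUFA5, one of the 7 that fell, the window (chr7:123601652-123601901, minus strand) held no match. That window lies well upstream of the counted locus, which ends at 123557904. A match is only a run of letters and was not tested for binding.

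Below, 4 promoters of members that rose and 3 of members that fell show this mixture; matches are in capitals, and each sequence ends at the base before the start of transcription. They lie at chr19:1605463-1605712 (UQCR11, minus strand), chr19:19515975-19516224 (NDUFA13, plus), chr12:53676084-53676333 (ATP5MC2, minus), chr18:46104228-46104477 (ATP5F1A, minus), chr5:218070-218319 (SDHA, plus), chr11:112086623-112086872 (SDHD, plus) and chr11:63974370-63974619 (COX8A, plus).
UQCR11: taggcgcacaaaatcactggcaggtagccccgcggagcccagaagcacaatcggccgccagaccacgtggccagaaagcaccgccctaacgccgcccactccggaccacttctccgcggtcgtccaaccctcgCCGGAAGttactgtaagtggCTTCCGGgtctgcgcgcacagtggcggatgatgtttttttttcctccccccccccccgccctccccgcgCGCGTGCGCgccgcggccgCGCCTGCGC
NDUFA13: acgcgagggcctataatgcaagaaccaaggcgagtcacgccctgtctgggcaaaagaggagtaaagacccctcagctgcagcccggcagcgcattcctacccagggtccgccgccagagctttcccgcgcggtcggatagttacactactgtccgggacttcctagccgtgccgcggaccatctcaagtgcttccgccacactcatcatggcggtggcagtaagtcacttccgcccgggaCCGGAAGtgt
ATP5MC2: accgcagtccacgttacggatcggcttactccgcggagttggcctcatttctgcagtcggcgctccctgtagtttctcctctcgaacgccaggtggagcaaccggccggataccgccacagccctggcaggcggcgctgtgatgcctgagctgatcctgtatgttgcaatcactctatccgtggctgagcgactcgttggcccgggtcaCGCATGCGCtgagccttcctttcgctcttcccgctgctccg
ATP5F1A: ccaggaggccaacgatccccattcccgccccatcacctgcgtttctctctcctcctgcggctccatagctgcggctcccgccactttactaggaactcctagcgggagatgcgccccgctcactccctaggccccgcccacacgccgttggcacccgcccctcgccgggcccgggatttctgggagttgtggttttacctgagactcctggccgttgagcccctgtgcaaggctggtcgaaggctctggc
SDHA: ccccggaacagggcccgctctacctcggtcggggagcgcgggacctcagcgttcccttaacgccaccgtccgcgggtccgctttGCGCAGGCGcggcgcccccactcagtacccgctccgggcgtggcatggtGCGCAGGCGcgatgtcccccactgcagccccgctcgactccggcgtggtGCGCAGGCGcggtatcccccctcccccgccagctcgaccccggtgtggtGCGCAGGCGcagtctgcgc
SDHD: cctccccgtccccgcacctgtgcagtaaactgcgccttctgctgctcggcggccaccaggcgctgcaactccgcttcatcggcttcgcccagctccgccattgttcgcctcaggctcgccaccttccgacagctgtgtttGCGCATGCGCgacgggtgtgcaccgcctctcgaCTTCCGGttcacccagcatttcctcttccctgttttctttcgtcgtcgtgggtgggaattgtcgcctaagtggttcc
COX8A: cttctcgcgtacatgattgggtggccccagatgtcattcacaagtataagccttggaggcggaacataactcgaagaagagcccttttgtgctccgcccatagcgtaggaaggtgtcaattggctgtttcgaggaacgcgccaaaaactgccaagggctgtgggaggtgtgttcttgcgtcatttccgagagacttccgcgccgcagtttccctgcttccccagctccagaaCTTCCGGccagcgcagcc
SDHA, which fell, held 4 copies of the NRF1 motif, while ATP5F1A, which rose with the smallest adjusted p of all members, held no match in this window. SDHD had an NRF1 motif that reads on both strands and an ETS motif, and UQCR11 had 2 of each. The single matches in NDUFA13 and COX8A were ETS motifs close to the start, in a member that rose and in a member that fell.

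Complex I oxidises NADH, and 17 of its 37 tested members rose, 3 fell and 17 were not called, with a median log2 fold change of 0.15. As shares, 45.9% were higher and 8.11% lower, beside 30.0% and 31.4% of all tested genes. Of the 7 core subunits in the matrix arm, which hold the flavin and the iron-sulphur clusters, 3 (42.9%) rose and none fell. NDUFS7, an iron-sulphur subunit close to the ubiquinone site, was measured at 5.99, 6.28 and 6.58 FPKM in NC and at 7.17, 7.36 and 7.15 FPKM in siGDF15. The groups did not overlap, and the log2 fold change was 0.31 ± 0.06 (SE; adjusted p = 0.00183). NDUFS8, another iron-sulphur subunit, rose by 0.25 with overlapping groups (adjusted p = 0.00811). NDUFV1, the flavin-binding subunit, had 22.0 ± 0.190 and 22.3 ± 1.12 FPKM (SD, n = 3) and was not called (adjusted p = 0.0703). The largest iron-sulphur subunit, NDUFS1, was likewise not called (log2 fold change -0.01 ± 0.05, SE). NDUFV1 passed without siGDF15 replicate 1 (adjusted p = 0.0177), and NDUFV2, another core subunit, without NC replicate 3 (0.0151 against 0.0523 with all libraries).

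The supernumerary subunits of complex I surround that core and moved in both directions. NDUFA13, known also as GRIM-19, had 18.8, 16.9 and 19.4 FPKM in NC and 26.6, 26.5 and 27.8 FPKM in siGDF15, a log2 fold change of 0.66 ± 0.06 (adjusted p = 4.75e-05). NDUFA1, a small membrane-anchored subunit encoded on the X chromosome, had 40.8, 36.9 and 40.7 FPKM in NC and 55.1, 51.3 and 60.2 FPKM in siGDF15, a log2 fold change of 0.60 ± 0.08 (adjusted p = 0.000275). All siGDF15 libraries were above all NC libraries for both genes. NDUFS4, an accessory subunit needed for a stable matrix arm, rose as well (16.5 ± 2.05 to 22.0 ± 0.415 FPKM; log2 fold change 0.52 ± 0.09, adjusted p = 0.00128), and so did the complex I member with the highest level, NDUFS5 (74.4 ± 1.79 to 88.7 ± 2.87 FPKM).

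Among the members that fell, NDUFA5 had the lowest level of all tested members. It was measured at 2.02, 2.32 and 2.29 FPKM in NC and at 1.33, 1.36 and 1.42 FPKM in siGDF15, which did not overlap (log2 fold change -0.58 ± 0.07, adjusted p = 0.000174). NDUFA6, an LYR-motif subunit near the matrix arm's junction with the membrane, had 26.9, 27.8 and 26.4 FPKM in NC and 19.8, 20.9 and 19.8 FPKM in siGDF15 (log2 fold change -0.32 ± 0.06, adjusted p = 0.00178). NDUFA9, which sits at the same junction, fell from 6.26 ± 0.385 to 4.92 ± 0.224 FPKM (log2 fold change -0.24 ± 0.07, adjusted p = 0.0119), but missed the threshold without siGDF15 replicate 1 (-0.20, adjusted p = 0.0584). In the distal membrane arm 6 of 11 NDUFB subunits (54.5%) rose and none fell, with a median log2 fold change of 0.16. NDUFB2 (6.98 ± 0.272 to 8.67 ± 0.227 FPKM), NDUFB7 (61.7 ± 2.08 to 73.5 ± 0.685) and NDUFB11 (10.96 ± 0.870 to 12.9 ± 0.0872) had the largest fold changes of these, 0.42, 0.36 and 0.34 on the log2 scale. Complex I calls that were lost when a single library was left out were those of NDUFA9 above, of NDUFA3 without NC replicate 1 or 2 or siGDF15 replicate 1 or 2 (adjusted p up to 0.118), of NDUFB1 without any library but NC replicate 2 (up to 0.122), of NDUFB9 without NC replicate 1 or 2 or siGDF15 replicate 2 or 3 (up to 0.151), and of NDUFV3 without NC replicate 1 or siGDF15 replicate 2 or 3 (up to 0.0952).

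NDUFA7 shows a limit of the counts themselves. Its row held 964, 1050 and 1090 counts in NC and 1258, 1050 and 276 counts in siGDF15, so that replicate 3 stood far below the rest, and it was not called (log2 fold change 0.01 ± 0.47, SE). An overlapping row on the same strand, ENSG00000167774, held 24 to 109 counts in NC, 132 and 40 in the first 2 siGDF15 libraries, and 1270 in siGDF15 replicate 3. With both rows added, NC held 1073, 1121 and 1114 counts and siGDF15 held 1390, 1090 and 1546, and the log2 fold change was 0.50 ± 0.07 (adjusted p = 0.000393). Without siGDF15 replicate 3, NDUFA7 alone had 0.46 (adjusted p = 0.00778). NDUFC2 and its read-through NDUFC2-KCTD14 also traded counts between libraries, from 565 to 1420 counts for the read-through in NC and from 350 to 1697 in siGDF15, and neither was called, alone or added. For NDUFA13 the overlapping row took 284 to 1140 counts in NC and 268 to 370 in siGDF15, and the log2 fold change of the sum was 0.47 ± 0.06 in place of 0.66 (adjusted p = 0.000166). The stacked counts show the 3 loci by library.

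**Figure D2:**
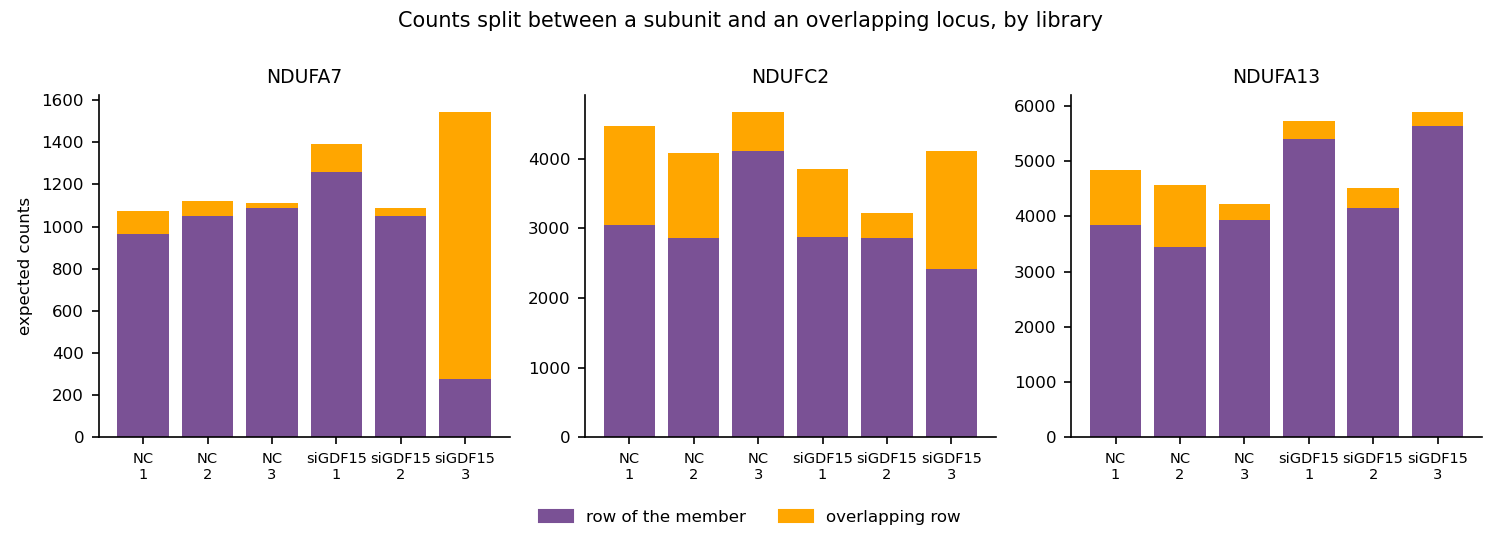
Expected counts of NDUFA7, NDUFC2 and NDUFA13 (purple) and of the row overlapping each on the same strand (orange), stacked, in the 6 libraries. In siGDF15 replicate 3 most counts of the NDUFA7 locus, 1270 of 1546, sit in the overlapping row.

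Complex II, succinate dehydrogenase, split evenly. Its catalytic flavoprotein SDHA had 16.5, 16.2 and 18.4 FPKM in NC and 12.6, 12.8 and 13.6 FPKM in siGDF15 (log2 fold change -0.29 ± 0.06, adjusted p = 0.00378). The membrane anchor SDHD had 25.98, 25.1 and 28.4 FPKM in NC and 19.9, 19.9 and 20.2 FPKM in siGDF15 (-0.30 ± 0.06, adjusted p = 0.0025). Neither gene's groups overlapped, and the value for SDHA was -0.34 with an overlapping row added. The other anchor, SDHC, was higher at 57.2, 57.8 and 56.3 FPKM in NC and 63.5, 59.4 and 61.5 FPKM in siGDF15 (0.21 ± 0.04, adjusted p = 0.00222). SDHB, the iron-sulphur subunit, had 32.3 ± 2.75 and 34.5 ± 0.791 FPKM (SD, n = 3) with overlapping groups, and its call (0.20 ± 0.07, adjusted p = 0.0335) was lost on leaving out any library other than NC replicate 3 (0.14 to 0.23, adjusted p up to 0.11). Scaled by total count without TMM, neither SDHB nor SDHC was called.

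Complex III passes electrons from ubiquinol to cytochrome c, and 4 of its 8 tested members rose while none fell (median log2 fold change 0.17). Higher calls were 50.0% of them, while all tested genes were 30.0% higher and 31.4% lower. UQCR11, a small supernumerary subunit, was measured at 25.4, 23.4 and 26.7 FPKM in NC and at 34.7, 34.5 and 36.0 FPKM in siGDF15 (0.58 ± 0.06, adjusted p = 7.41e-05). UQCRB, which binds near the ubiquinone site, rose from 15.6 ± 0.924 to 19.3 ± 0.187 FPKM (0.41 ± 0.05, adjusted p = 0.000201). Of the paired core proteins, UQCRC2 rose (30.2 ± 0.340 to 35.9 ± 0.643 FPKM; 0.35 ± 0.04, adjusted p = 0.000112), while UQCRC1 was not called (57.3 ± 1.57 and 55.5 ± 1.79 FPKM; 0.06 ± 0.05, adjusted p = 0.283). UQCRFS1, the Rieske iron-sulphur protein, was not called either (26.6 ± 2.46 and 26.6 ± 0.613 FPKM). The same held for UQCRH, the hinge protein and the complex III member with the highest level (75.9 ± 2.42 and 71.0 ± 1.29 FPKM). The call of UQCR10 (0.21, adjusted p = 0.0379) was lost on leaving out any library other than NC replicate 3 (adjusted p up to 0.108).

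Cytochrome c1, encoded by CYC1, is the redox subunit of complex III that the name rule does not reach, and it moved much further than any member. CYC1 had 125, 114 and 130 FPKM in NC and 53.0, 53.6 and 53.1 FPKM in siGDF15 (log2 fold change -1.11 ± 0.06, adjusted p = 1.97e-06). Cytochrome c itself, CYCS, had 25.6 ± 4.30 and 20.05 ± 0.748 FPKM and was not called (adjusted p = 0.0784).

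Complex IV, cytochrome c oxidase, had 8 of 11 tested members higher and 2 lower, with a median log2 fold change of 0.26. Their shares were 72.7% and 18.2%, beside 30.0% and 31.4% of all tested genes. NDUFA4, once assigned to complex I, was counted here because it purifies with complex IV. The COX7C mRNA stood at 42.9, 43.7 and 40.8 FPKM in NC and at 54.1, 55.2 and 62.5 FPKM in siGDF15 (0.54 ± 0.06, adjusted p = 0.000117). NDUFA4 rose from 23.9 ± 0.943 to 31.5 ± 1.56 FPKM (0.50 ± 0.06, adjusted p = 0.000128). COX7B, another single-helix subunit, rose from 13.9 ± 0.927 to 18.1 ± 0.576 FPKM (0.49 ± 0.07, adjusted p = 0.000336). The matrix-side subunits COX5A and COX5B differed in call: COX5B rose (26.3 ± 1.18 to 31.3 ± 2.05 FPKM; 0.36 ± 0.07, adjusted p = 0.00235) and COX5A was not called (44.5 ± 3.18 and 41.6 ± 1.57 FPKM; 0.01 ± 0.07). That these differ from each other was not tested.

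COX8A went the other way, from the highest level in the complex. This small subunit, the ubiquitous form of COX8, had 197, 193 and 201 FPKM in NC and 132, 129 and 127 FPKM in siGDF15 (log2 fold change -0.50 ± 0.05, adjusted p = 3.19e-05). It made up 38.5 to 38.9% of the summed FPKM of complex IV members in NC and 26.4 to 28.2% in siGDF15. The sum itself was 497 to 517 FPKM in NC and 468 to 480 in siGDF15, whereas without COX8A it was 304 to 316 in NC and 336 to 354 in siGDF15, so the groups stood in the opposite order. COX7A2 was the other member to fall (23.7 ± 0.389 to 19.4 ± 0.445 FPKM; -0.18 ± 0.05, adjusted p = 0.0166), and its call was lost without NC replicate 1 or without siGDF15 replicate 1 or 2 (adjusted p up to 0.0552) and with equal-median scaling. Its paralog COX7A2L, a factor of supercomplex formation and the tested complex IV member with the lowest level, was higher by 0.14 (9.86 ± 0.168 and 10.1 ± 0.375 FPKM, adjusted p = 0.04), a call lost on leaving out any of the 6 libraries (adjusted p up to 0.15).

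**Figure D3:**
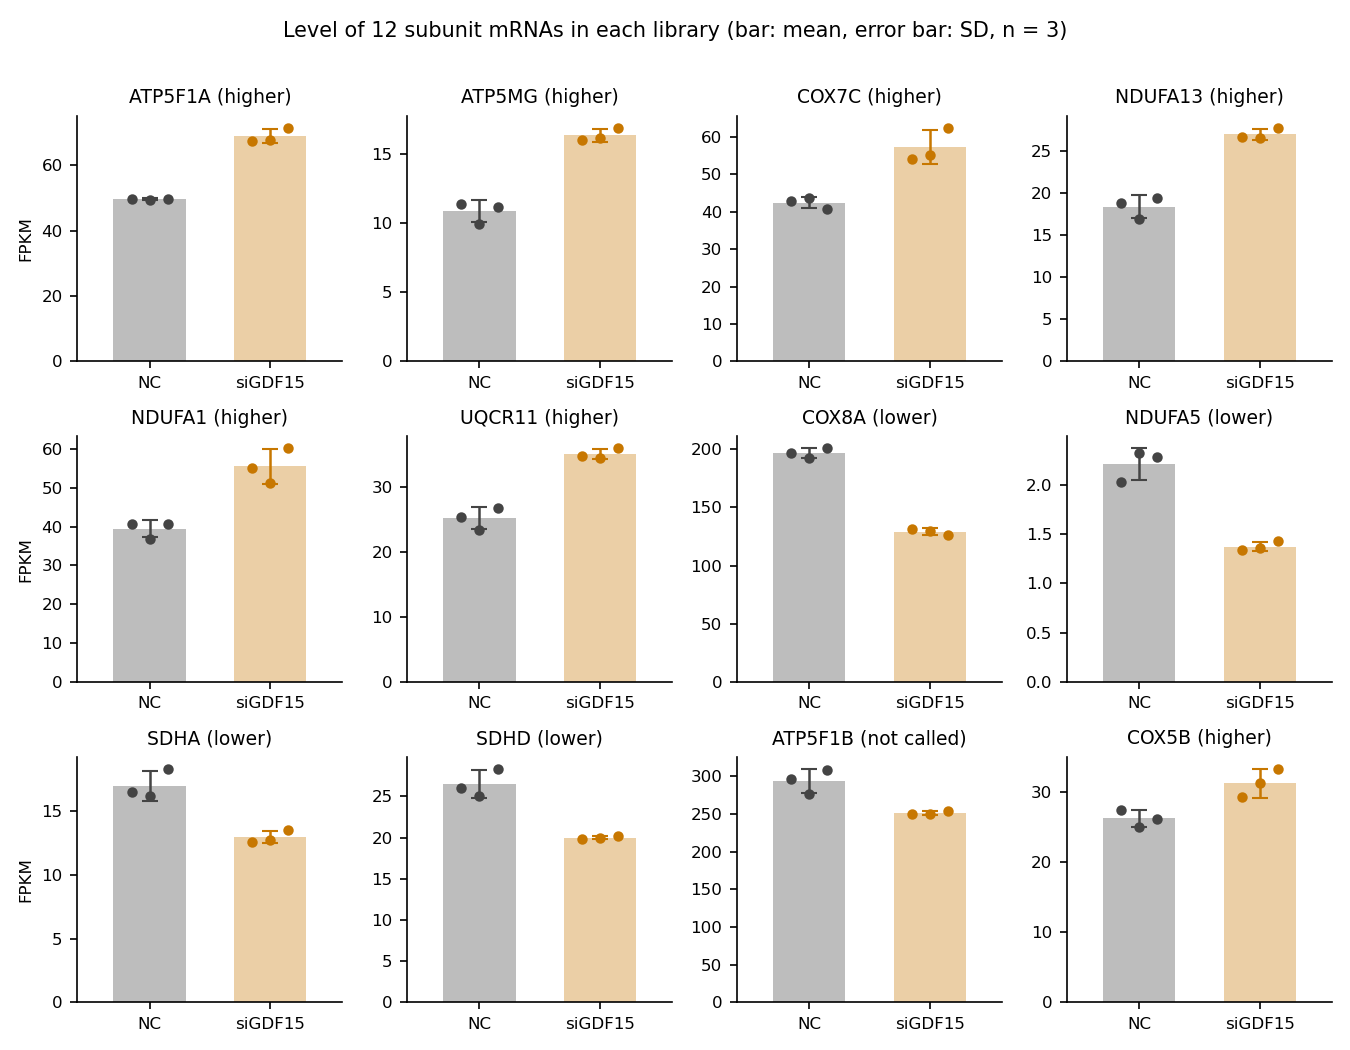
FPKM of 12 subunit mRNAs in the NC and siGDF15 libraries; points are libraries, bars means and error bars SD (n = 3), with the call above each panel. All of these chosen panels have separated groups, as did 65.8% of members and 68.4% of all tested genes. COX8A falls from 197 to 129 FPKM, while ATP5F1B lies lower in siGDF15 in FPKM without being called by the TMM-scaled test.

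Of the isoforms and paralogs known for restricted expression, 3 were below the filter and NDUFA4L2 was above it. COX6B2, known from testis, had 0.0935, 0.136 and 0.0729 FPKM in NC and 0.307, 0.336 and 0.412 FPKM in siGDF15, under the filter, beside 39.7 ± 2.53 and 44.1 ± 1.67 FPKM for its ubiquitous counterpart COX6B1, which rose (0.26, adjusted p = 0.00947). COX7B2 lay between 0 and 0.187 FPKM and UQCRHL between 0.608 and 0.805 FPKM. NDUFA4L2, a paralog of NDUFA4 known to respond to hypoxia, had 6.81 ± 0.364 and 6.65 ± 0.465 FPKM and was not called (adjusted p = 0.473). COX6A1, the non-muscle form, had 66.5 ± 1.13 and 69.5 ± 1.36 FPKM and was higher by 0.17 (adjusted p = 0.00985), a call that was also lost under quantile normalization and with no filter (adjusted p up to 0.208 over all alternatives). COX4I1, outside the name rule, rose by 0.24 (40.5 ± 1.21 to 44.6 ± 1.10 FPKM, adjusted p = 0.00218).

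With TMM, complex V had 12 of 18 tested members higher (66.7%) and none lower, and the highest median among the complexes, 0.31. Of all tested genes 30.0% were higher and 31.4% lower. In FPKM, however, ATP5F1B, ATP5F1C, ATP5F1E and ATP5MC3 had every siGDF15 library below every NC library. The subunits of the catalytic head and central stalk of complex V divided. ATP5F1A, the α subunit, had 49.8, 49.2 and 49.6 FPKM in NC and 67.5, 67.7 and 71.4 FPKM in siGDF15, a log2 fold change of 0.58 ± 0.04 (adjusted p = 8.72e-06). The catalytic β subunit ATP5F1B, the member with the highest level of all, had 297, 277 and 309 FPKM in NC and 250, 250 and 255 FPKM in siGDF15. The groups did not overlap in FPKM, but ATP5F1B was not called with TMM (-0.12 ± 0.05, adjusted p = 0.0734) and passed without NC replicate 2 (-0.17, adjusted p = 0.00727). The γ subunit ATP5F1C (53.2 ± 2.93 and 46.4 ± 1.01 FPKM) and the ε subunit ATP5F1E (10.7 ± 0.336 and 9.51 ± 0.321 FPKM) were not called, although ATP5F1C was called lower without NC replicate 2 (-0.14, adjusted p = 0.0241). The δ subunit ATP5F1D was higher by 0.21 (adjusted p = 0.0407), a call lost without either NC replicate 1 or 2 or siGDF15 replicate 2 or 3 (adjusted p up to 0.137).

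In the membrane part of complex V, all 5 supernumerary subunits rose, with a median log2 fold change of 0.45. ATP5MG, the g subunit involved in dimer formation, stood at 11.4, 9.98 and 11.2 FPKM in NC and at 16.03, 16.2 and 16.9 FPKM in siGDF15 (0.70 ± 0.06, adjusted p = 2.77e-05), the largest fold change of all members. ATP5MK rose by 0.62, ATP5ME by 0.45, ATP5MF by 0.36 and ATP5MJ, which had the lowest level in the complex, by 0.35. Of the peripheral stalk, which holds the head still, ATP5PB, ATP5PD and ATP5PO rose by 0.30, 0.26 and 0.32 and ATP5PF was not called (0.10, adjusted p = 0.209). ATP5IF1, the inhibitor that blocks ATP hydrolysis when the gradient collapses, had 12.8, 12.7 and 12.3 FPKM in NC and 15.4, 15.8 and 17.0 FPKM in siGDF15 (0.46 ± 0.06, adjusted p = 0.000264).

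The c ring is encoded by 3 genes whose mature proteins are the same, and these differed in call. ATP5MC2 had 28.7, 31.6 and 29.4 FPKM in NC and 39.5, 41.9 and 43.3 FPKM in siGDF15 (0.58 ± 0.06, adjusted p = 4.18e-05). ATP5MC1 (25.2 ± 2.33 and 24.1 ± 1.03 FPKM; 0.04 ± 0.08) and ATP5MC3 (32.9 ± 0.964 and 28.9 ± 0.869 FPKM; -0.09 ± 0.05) were not called, and the difference between the 3 genes was not tested. Among the c-ring genes, ATP5MC3 led in FPKM in NC and ATP5MC2 in siGDF15.

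The core subunits made from mitochondrial DNA, which join these members in complexes I, III, IV and V, were also higher in the siGDF15 libraries. All 13 were called higher, by 0.27 to 0.74 (median 0.54), although 7 of them took the opposite sign under quantile normalization. That method gives every library the same set of values, so it can hide a rise shared by the genes of the highest levels. In FPKM all 13 had every siGDF15 library above every NC library, while 68.4% of all tested genes had separated groups in either direction. MT-ND1 had 3185, 3215 and 3306 FPKM in NC and 4738, 5144 and 4699 FPKM in siGDF15 (0.69 ± 0.05, adjusted p = 9.57e-06). MT-CYB, the cytochrome b of complex III, rose from 3093 ± 138 to 4344 ± 145 FPKM (0.60 ± 0.05, adjusted p = 1.47e-05) in the TMM-scaled test and was among those that changed sign.

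Assembly factors, which insert cofactors and join subunits, had no common direction: 13 of 52 rose and 10 fell, with a median of -0.03. These are 25.0% and 19.2%, beside 30.0% higher and 31.4% lower among all tested genes. For complex I, NDUFAF3 (20.5 ± 0.208 to 30.1 ± 1.06 FPKM; 0.66) and TMEM126B (0.30) rose, while COA1 (4.22 ± 0.127 to 2.09 ± 0.0660 FPKM; -0.91, adjusted p = 5.57e-06) and FOXRED1 (-0.36) fell. SDHAF2, which attaches the flavin to SDHA, fell from 21.1 ± 1.33 to 12.1 ± 0.305 FPKM (-0.70, adjusted p = 4.33e-05), and SDHAF1 rose by 0.37. For complex III, BCS1L, which inserts the Rieske protein, fell by 0.78 on the log2 scale and LYRM7 by 0.54, while UQCC1 rose by 0.50. For complex IV, SURF1 (9.94 ± 0.133 to 16.2 ± 0.203 FPKM; 0.81, adjusted p = 7.74e-06) and COX14 (0.66) rose and CMC2 (-0.48) and TACO1 (-0.27) fell. SCO2, a copper chaperone for complex IV and a known p53 target, is named here after its values were seen: it had 3.07, 1.95 and 3.17 FPKM in NC and 5.77, 7.13 and 4.94 FPKM in siGDF15 (1.22 ± 0.22, adjusted p = 0.00158). TMEM70, a complex V factor, fell by 0.57 (adjusted p = 9.63e-05).

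Among the transcription regulators of these genes 3 of 11 tested were lower, 2 higher and 6 not called. These are 27.3% lower and 18.2% higher, beside 31.4% and 30.0% of all tested genes. TFAM, which packages and transcribes mitochondrial DNA, had 17.0, 15.4 and 16.8 FPKM in NC and 10.2, 9.98 and 9.84 FPKM in siGDF15 (-0.61 ± 0.06, adjusted p = 3.37e-05). NRF1, whose motif is shown above, fell from 4.39 ± 0.293 to 2.89 ± 0.336 FPKM (-0.50 ± 0.10, adjusted p = 0.00272). TFB2M and PPRC1 were higher by 0.26 and 0.30, with overlapping groups in FPKM. The coactivator genes PPARGC1A and PPARGC1B were below the filter and not tested. PPARGC1A had means of 0.0233 FPKM in NC and 0.134 in siGDF15, and PPARGC1B 0.758 and 0.948, with separated groups for both.

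In the citric acid cycle and pyruvate dehydrogenase, which feed the chain with electrons, 9 of 16 genes rose and 5 fell. These are 56.2% and 31.2%, beside 30.0% higher and 31.4% lower among all tested genes. IDH3G (28.9 ± 1.08 to 39.5 ± 0.277 FPKM; 0.55, adjusted p = 2.49e-05) and PDHB (0.42) rose, while DLST (28.3 ± 0.445 to 17.4 ± 0.101 FPKM; -0.60, adjusted p = 7.31e-06) and DLAT (-0.57) fell. Among 13 carriers and other mitochondrial proteins 5 rose and 4 fell (38.5% and 30.8%), and the matrix chaperonin HSPD1 was among those that fell. The ADP/ATP carriers moved apart, SLC25A6 from 257 ± 7.52 to 424 ± 10.1 FPKM (0.83, adjusted p = 2.38e-06) and SLC25A5 from 195 ± 11.5 to 113 ± 1.77 FPKM (-0.67, adjusted p = 1.94e-05). A further ADP/ATP carrier at a lower level, SLC25A4, rose from 5.42 ± 0.653 to 6.32 ± 0.286 FPKM (0.33, adjusted p = 0.012). The phosphate carrier SLC25A3 rose by 0.68, and the outer membrane channel VDAC3 fell by 0.37 on the log2 scale.

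**Figure D4:**
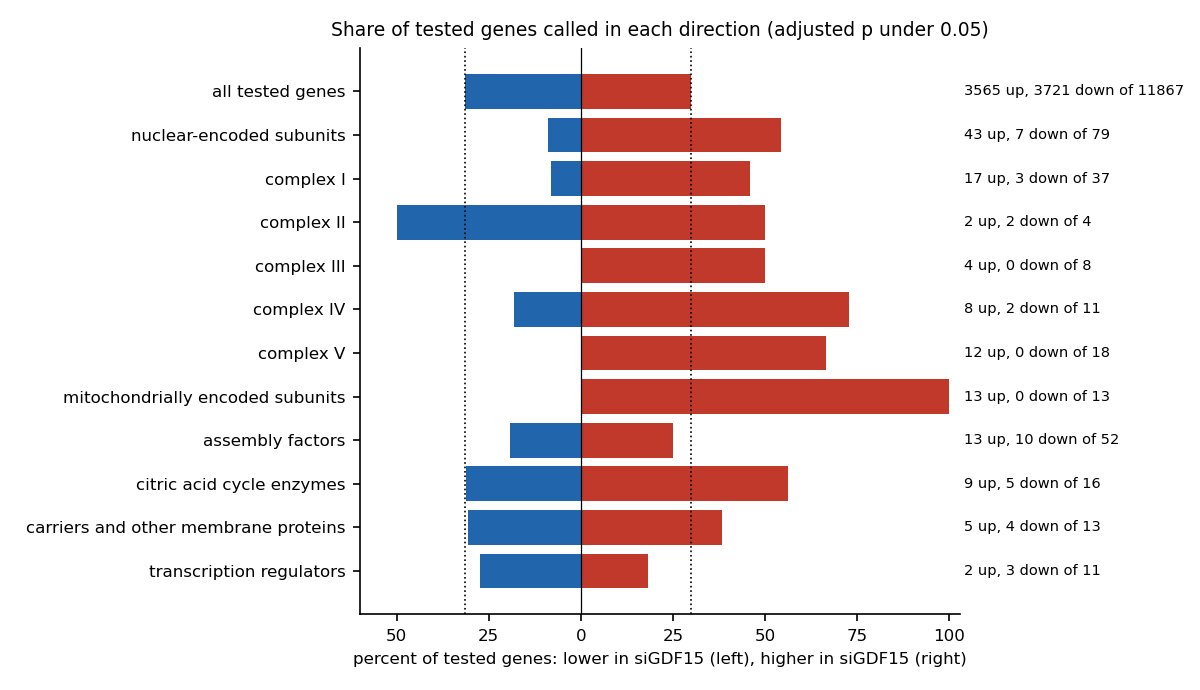
Percent of tested genes called lower (blue, left) and higher (red, right) in siGDF15, for all tested genes, the nuclear-encoded subunits, each complex and the related lists; dotted lines mark the shares of all tested genes, 31.4% and 30.0%. With TMM, complexes III and V have no lower calls and the mitochondrially encoded subunits were all called higher. Of these 13, 7 changed sign under quantile normalization, which can hide a shared rise of the most abundant genes. The row of carriers and other membrane proteins includes the matrix chaperonin HSPD1.

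Levels among the members ranged widely, from 1.79 FPKM for NDUFA5 to 273 FPKM for ATP5F1B as means over the 6 libraries, with a median of 21.8. Summed over the 79 tested members, FPKM was 2381, 2271 and 2409 in NC and 2368, 2404 and 2435 in siGDF15, so the groups overlapped. As a share of all FPKM the members took 0.920, 0.872 and 0.924% in NC and 0.844, 0.839 and 0.860% in siGDF15, lower in each siGDF15 library than in each NC library. The total behind this share includes the mitochondrially encoded subunits, among them MT-CO1 with a mean of 8346 FPKM in NC and 11580 in siGDF15. A lower share is thus not a lower sum of the members. The members with the highest levels, ATP5F1B and COX8A, were among those with negative fold changes. By complex, the sum in complex I was 670 to 697 FPKM in NC and 727 to 743 in siGDF15, and in complex V it was 689 to 766 and 733 to 764.

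**Figure D5:**
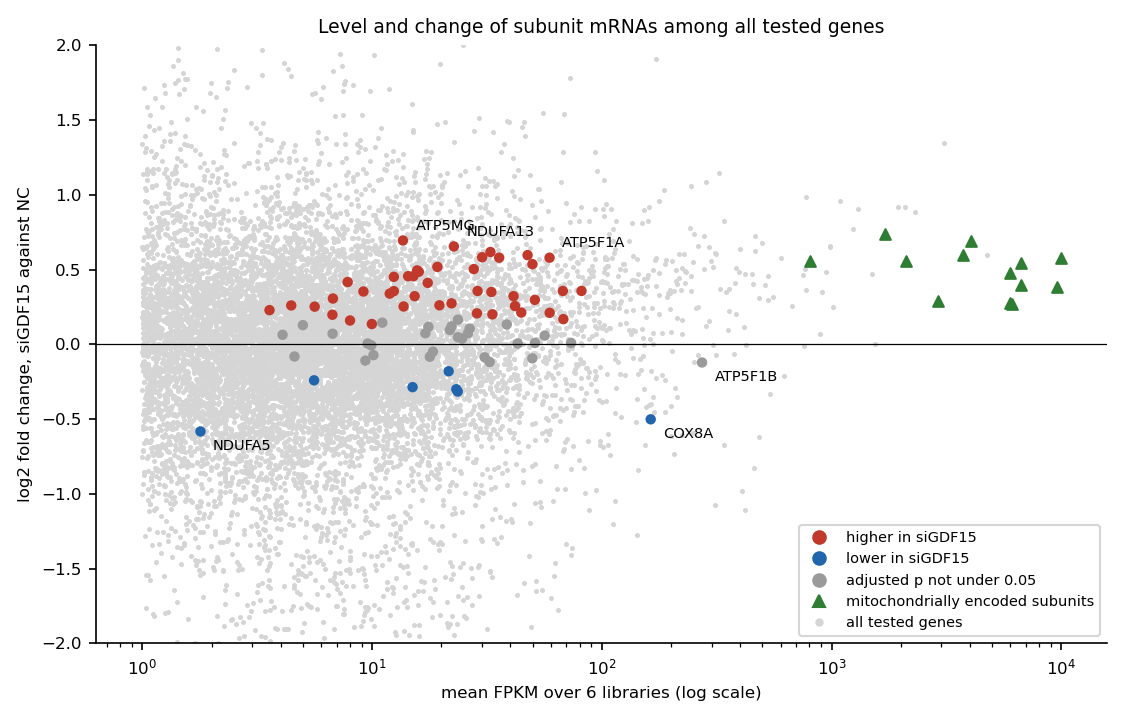
Mean FPKM over 6 libraries (log scale) against log2 fold change for all tested genes (grey), the subunits (coloured by call) and the mitochondrially encoded subunits (triangles); 64 genes beyond a log2 fold change of 2 in either direction are not drawn. Subunits lie in a band within 0.70 of 0 at all levels, and COX8A and ATP5F1B are the most abundant of them and lie below 0. The triangles lie above 0 with TMM, although 7 changed sign under quantile normalization, which can hide a shared rise of the most abundant genes.

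The members share features that the name rule did not use. Their transcripts are short, with a median length of 702 bases beside 1790 for all tested protein-coding genes, and 79.7% of members against 25.1% of those genes were under 1000 bases. Among all tested protein-coding genes under 1000 bases, 34.9% were higher and 30.4% lower, while 36 of 63 members in that class were higher and 4 lower. The 7 bases CTCATTC, complementary to positions 2 to 8 of the antisense strand of the GDF15 siRNA, occurred in the 3′ untranslated regions of 11.4% of members and 14.9% of tested genes with such a region. Of the 9 members with that match, ATP5F1A, ATP5MG, COX7A2L, NDUFB2 and SDHC were higher and NDUFA5 was lower, while ATP5F1E, NDUFA10 and NDUFB8 were not called. Over all 1567 tested genes with the match 349 were higher and 659 lower, with a median of -0.12. Among all 11867 tested genes 3565 were higher and 3721 lower, with a median of 0.00. Pseudogene rows, named by a member's symbol followed by P and a number, existed for 31 members, 64 rows in all, and reads shared between copies could have been split by the counting. Whether the counting used strand is not given in the sources used here.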

How the data were processed

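Poly(A) RNA of 6 libraries (NC and siGDF15, 3 each) was sequenced as stranded paired-end reads. Per the labels, the submitters' processing notes name fastp, HISAT2, StringTie and edgeR and the build GRCh38. Versions, the annotation release and the use of strand in counting are not given in the sources used here. The deposited table gives expected counts per gene, whole numbers derived by the authors from transcript coverage, and FPKM, which the authors scaled to transcript length and mapped fragments. No per-sample column was left unassigned (0).

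The counts were rounded and tested with edgeR 4.0.16 (R 4.3.3; TMM factors, glmQLFit and glmQLFTest, two-sided) on 11867 genes whose mean FPKM was 1 or more, with Benjamini-Hochberg adjustment over those genes and a call at an adjusted p under 0.05. Standard errors of log2 fold changes come from the quasi-likelihood F statistic, and errors of FPKM are SD over 3 libraries. The sources call the replicates biological without saying how they were separated, so p-values measure the spread between these libraries. On simulated data for this comparison and its 11867 genes, 100% of genes with a log2 fold change of 1 or -1 were recovered, 78% at 0.5 and 68% at -0.5. That simulation changed only a small share of genes, as many up as down, at a fixed dispersion, whereas 61.4% were called in the data. Fold changes below 0.5 were not simulated, so these rates do not give the sensitivity for changes as small as most members had.

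Members and lists were chosen with earlier results of these data known. Values are given for the up to 3 members per complex with the smallest adjusted p in each direction, those with the highest and lowest level in each complex, catalytic and core subunits, isoform pairs, members whose call depended on a library, and up to 2 genes in each direction of each other list. Some results that the rule selects are not reported here. Other members are named for their place in a subcomplex. Lists are described by counts and medians without a set test. Depth limits the lowest values: 3 read pairs are 12 counts, and this covers counting error only. Alternatives were DESeq2 1.42.0, limma 3.58.1 on log2(FPKM + 1) and log2(FPKM + 0.1), quantile normalization, other scalings and filters, and each library left out.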

Additional observations from a re-analysis of the deposited data

How the results depend on the processing

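Of the 50 called members, 33 kept their call under all 18 alternative fits, 28 higher and 5 lower, and none changed sign. Under the DESeq2 test, equal-median scaling, scaling without mitochondrial genes, a filter at 0.1 FPKM or none, read-through names left out, missed subunits added and 2 alternatives chosen after seeing the data (overlapping rows added, counts divided by 4), 30 to 46 members were higher and 6 to 8 lower. The shares of all tested genes ran from 9.5% higher and 11.7% lower with no filter (30 and 7 members) to 34.3% and 27.2% with equal-median scaling (46 and 6 members). The count of lower members rose from 7 to 14 with total counts without TMM, to 11 with quantile normalization and limma, and to 15 with limma on log2(FPKM + 1) or with a pseudocount of 0.1. The 3 settings scaled by library totals each gave 29 higher members, with 22.6 to 22.8% of all tested genes higher and 39.2 to 39.5% lower. With a log2 fold change of at least 1 required as well, 0 members were higher and 0 lower, beside 3.03% and 4.78% of all tested genes, whereas edgeR without that requirement called 43 and 7 and DESeq2 44 and 7. Leaving out each library in turn gave 35 to 42 higher and 5 to 10 lower members, beside 25.4 to 31.0% and 26.7 to 31.8% of all tested genes. Without siGDF15 replicate 2, the library of lowest depth, 35 were higher and 6 lower.

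Under quantile normalization with limma, 7 mitochondrially encoded genes had negative log2 differences: MT-ND2 -0.507, MT-ND5 -0.256, MT-ATP6 -0.116, MT-CYB -0.115, MT-CO3 -0.0978, MT-ATP8 -0.0581 and MT-CO2 -0.0388. Quantile normalization sets all libraries to the same distribution, so it can hide a rise shared by the genes of the highest levels. Whether this accounts for the signs was not tested.

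Replicate numbers are shared by both groups, but same-numbered libraries did not deviate together (r = 0.0276, -0.0753 and 0.0458), and 1 of 3 NC libraries correlated best with its own number, so the numbers were not taken as pairs. With the replicate block 37 members were higher and 7 lower. Depth limits COX7B2 and COX6B2 most, both under 1 FPKM.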
